A study of Rattus norvegicus with 12 samples.

Results

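The miRNAs described here are the mature arms of 7 rat hairpins whose transcription is tied to inflammatory signalling: miR-21, miR-146a, miR-146b, miR-155, miR-147, miR-132 and miR-212. They were chosen by name, as every row of the deposited count tables whose ID, without species prefix and arm ending, is one of those names. This gave 13 mature miRNAs among 649 listed in the tables, with rno-miR-21-5p, rno-miR-146a-5p and rno-miR-155-5p as the arms best known from inflamed tissue (the species prefix is dropped from here on). The rule for membership uses names and no measured value. All 13 were found in the RefSeq miRNA table of the GRCr8 assembly, the source of the sequences below.

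Small RNA libraries had been made from rat gastric mucosa in 3 groups of 4. XLHZ rats drank MNNG (N-methyl-N'-nitro-N-nitrosoguanidine), a mutagen that alkylates DNA, at 180 µg/ml for 24 weeks and received the XLHZ preparation that names the group for 60 days. Model rats had the MNNG exposure without the preparation. Both exposed groups were also gavaged with 2% sodium salicylate at 1 ml per 100 g and kept on alternating spells of 2 days of feeding and 1 day of fasting, a composite regimen meant to produce CAG, the abbreviation the labels use. Normal rats were untreated. Strain, sex and age are not in the labels. Nor do they tie each library to its own rat, and the tests below therefore rest on variation among libraries, which may be technical. The libraries held between 9095260 and 11556061 counts of mature miRNAs.

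These miRNAs are textbook products of inflammatory transcription. NF-kB induces the miR-146a and miR-155 genes, and AP-1 and STAT3 induce miR-21. The targets form feedback loops: miR-146a and miR-146b repress the adaptors Irak1 and Traf6 and so dampen Toll-like receptor signalling. miR-155 represses the brakes Socs1 and Inpp5d in activated macrophages and lymphocytes. miR-21-5p represses Pdcd4 and is abundant in inflamed and cancerous epithelium and stroma. miR-147 is induced by Toll-like receptors in mouse macrophages, and the tandem miR-212 and miR-132 gene is induced by CREB in neurons and in stimulated immune cells.

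The dominant arms are printed because the results turn on them and because their seeds show which of them can share targets. Each runs 5′ to 3′, with the seed, bases 2 to 8, in capitals.
miR-21-5p: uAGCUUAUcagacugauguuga
miR-146a-5p: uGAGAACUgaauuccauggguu
miR-146b-5p: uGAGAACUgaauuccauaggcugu
miR-155-5p: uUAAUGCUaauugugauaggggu
miR-147: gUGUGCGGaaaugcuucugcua
miR-132-3p: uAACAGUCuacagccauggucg
miR-212-3p: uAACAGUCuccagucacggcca

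The 13 arms carry 11 different seeds, and no other rat miRNA in the RefSeq table has any of them. miR-146a-5p and miR-146b-5p share a seed although their hairpins lie on different chromosomes, 10 and 1. Over the 22 bases that can be compared they differ at 2, counted from the 5′ end of miR-146a-5p as G18A and U21C. Both positions are far from the seed, and reads that stop early or carry an error there can be assigned to either miRNA, so their split is uncertain to that extent. miR-132-3p and miR-212-3p also share a seed and match at 17 of 22 bases, differing as A10C, C14U, U17C, U20C and G22A. Their hairpins are neighbours on chromosome 10, where 222 bases separate mature miR-212-3p from mature miR-132-5p. On GRCr8, 4 of the 7 hairpins lie on that chromosome: miR-146a at chr10:28349996-28350090 on the minus strand, miR-21 at chr10:71902600-71902691 on the minus strand, miR-132 at chr10:60522033-60522133 on the plus strand, and miR-212 beside it. The miR-155 hairpin, at chr11:37261114-37261178 on the plus strand, lies in Mir155hg, its noncoding host gene. The miR-147 hairpin, at chr3:130176275-130176353, overlaps the protein-coding gene C3h15orf48, and the miR-146b hairpin, at chr1:255144860-255144947, overlaps C1h10orf95, both on the plus strand. miR-146a overlaps the long noncoding RNA gene LOC134480673, while the table lists no overlapping gene for miR-21, miR-132 or miR-212.

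Levels are given as CPM (counts relative to the library total), adjusted by TMM factors over all 12 libraries. Mature miRNAs are read whole and are of nearly one length, so levels of different miRNAs were set side by side without a length correction. Unequal capture of single sequences during library preparation was not tested. By mean level the set runs from miR-21-5p at 41198 CPM, the seventh most abundant miRNA in these libraries (rank 7), through miR-146a-5p at 2141 CPM, miR-146b-5p at 926 CPM, miR-155-5p at 378 CPM and miR-132-3p at 153 CPM. Then come miR-147 at 83.6 CPM and miR-21-3p at 57.4 CPM, while both miR-212 arms, miR-132-5p and miR-146a-3p average between 9.59 and 18.2 CPM. Ranges over the 12 libraries of neighbours in this order overlapped except between miR-21-5p and miR-146a-5p, between miR-146b-5p and miR-155-5p, between miR-155-5p and miR-132-3p and between miR-21-3p and miR-132-5p. miR-155-3p, the passenger arm, had 2 counts in model library 1 and 0 in the other 11 libraries, and a count of 0 allows up to 3 counts, or 0.26 to 0.33 CPM at these depths. miR-146b-3p had at most 5 counts in any library. Those 2 arms were too low to be tested, which left 11.

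None of the 11 tested miRNAs passed in any of the 3 comparisons. In edgeR's quasi-likelihood test with Benjamini-Hochberg adjustment over all miRNAs, their adjusted p ranged from 0.590 to 0.971 in model against normal mucosa, from 0.729 to 0.955 in XLHZ against model, and from 0.567 to 0.910 in XLHZ against normal. The background of calls was low as well: 0.248% of 403 miRNAs passed in model against normal, 0.249% of 402 in XLHZ against model, and 1.5% of 401 in XLHZ against normal. At an unadjusted p under 0.05, 1 of the 11 was reached in model against normal, where 7.2% of all miRNAs were, and 0 in the other comparisons, where 4.23% and 8.73% were. Groups did not overlap for 1 of the 11 in model against normal, beside 3.47% of all miRNAs, and for 0 of the 11 in XLHZ against model and in XLHZ against normal, beside 1.25% and 6.23%. In the same order, 7, 6 and 8 of the 11 had a positive log2 fold change, with medians of 0.089, 0.051 and 0.13, beside medians over all miRNAs of -0.0072, 0.0057 and -0.0040. Each group stands in 2 comparisons, so these counts share libraries.

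**Figure D1:**
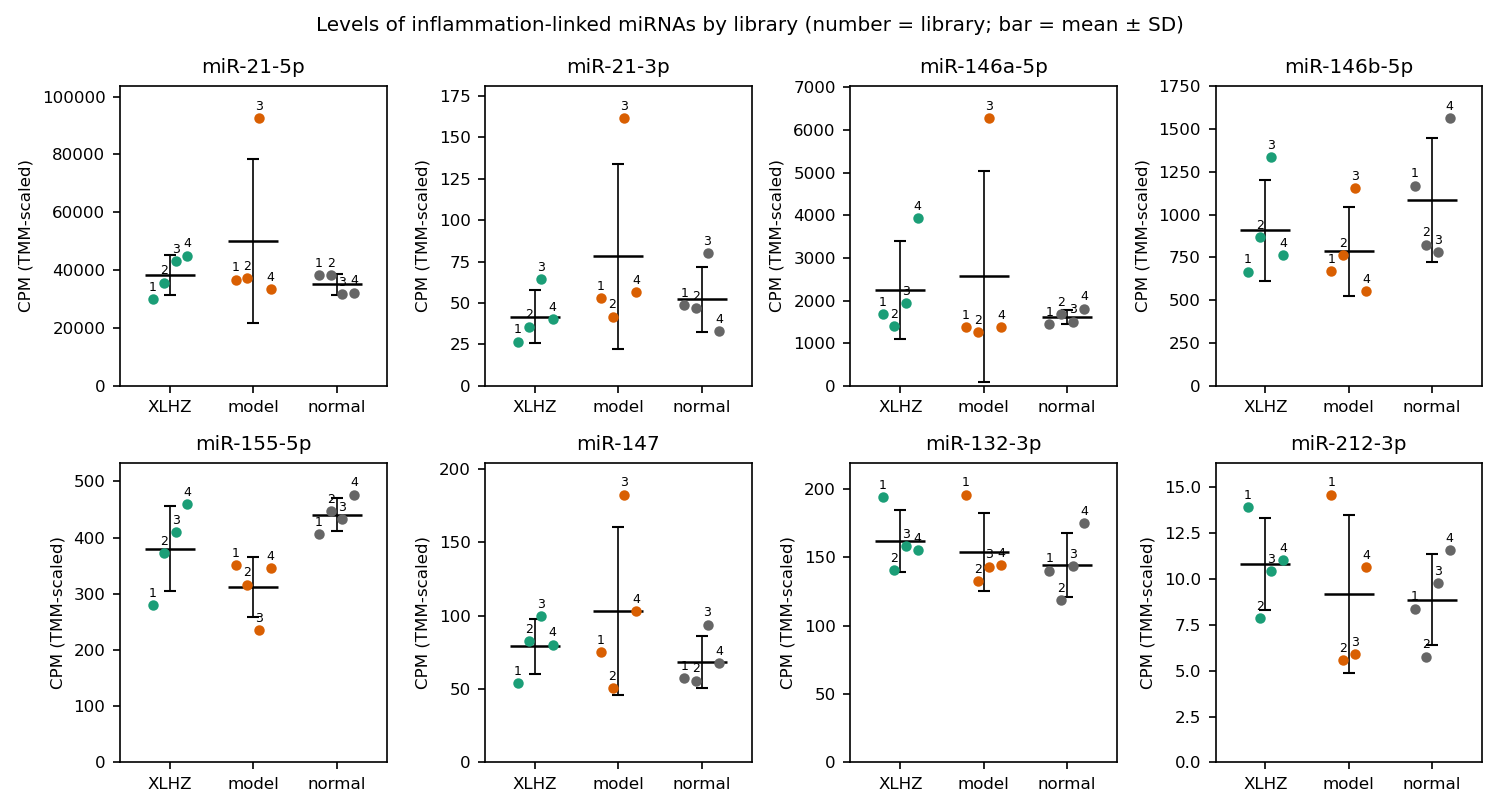
Level of 8 miRNAs in each of 12 libraries, in TMM-scaled CPM on axes that start at 0; points carry the library number, horizontal lines are group means and vertical bars ± SD (n = 4). Model library 3 stands far above the other model libraries for miR-21-5p, miR-21-3p, miR-146a-5p and miR-147, while all 4 model points lie below all 4 normal points for miR-155-5p.

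miR-155-5p, made by activated lymphocytes and macrophages, was the one member whose model and normal libraries did not overlap. It measured 351, 316, 235 and 345 CPM in model libraries 1 to 4, against 406, 447, 432.5 and 476.5 CPM in normal libraries 1 to 4. Every model library lay below every normal one. The log2 fold change was -0.50 (SE 0.18, 95% interval -0.89 to -0.11), a level 0.706 times that of normal mucosa, with an unadjusted p of 0.0176 and an adjusted p of 0.590 in edgeR. It did not pass the adjusted threshold, and without model library 3 the log2 fold change was -0.33 (SE 0.13, adjusted p = 0.684 in edgeR). Scaled to library totals alone, which moves the median of all miRNAs to -0.12, the log2 fold change was -0.60, or -0.48 relative to that median.

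miR-155-5p measured 280, 372, 410 and 459 CPM in XLHZ libraries 1 to 4. XLHZ libraries 2, 3 and 4 lay above every model library, and XLHZ library 1 lay between model libraries 2 and 3. Against the model the log2 fold change was 0.27 (SE 0.21, 95% interval -0.21 to 0.74, adjusted p = 0.802 in edgeR), and without model library 3 it was 0.12. Against normal mucosa it was -0.24 (SE 0.16, 95% interval -0.60 to 0.12, adjusted p = 0.640 in edgeR), or -0.10 without XLHZ library 1, and the XLHZ libraries overlapped the normal ones. The XLHZ mean was 380 ± 75.7 CPM, the model mean 312 ± 53.6 CPM and the normal mean 441 ± 29.3 CPM (SD, n = 4 each).

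Markers of leukocytes, the cells best known for miR-155, were read beside it. In bulk mucosa fewer cells of a type and less RNA per cell cannot be told apart. All 6 tested leukocyte miRNAs (arms of miR-142, miR-150, miR-223 and miR-342) had negative log2 fold changes in model against normal mucosa, with a median of -0.25, and all 6 had positive ones in XLHZ against model, with a median of 0.20. Both arms of miR-142 and of miR-223 are counted. In model against normal miR-142-3p stood at -0.017 (SE 0.24) and miR-142-5p at -0.051 (SE 0.25), each far smaller than its SE. In XLHZ against normal 2 of the 6 were positive and 4 negative, with a median of -0.10. None of them passed (lowest adjusted p of 0.642, 0.802 and 0.640 in edgeR, in the same order). Their summed level was 3796 to 6883 CPM in XLHZ, 2893 to 5748 CPM in model and 4170 to 5076 CPM in normal libraries. Model library 3 had the highest leukocyte sum of the 4 model libraries, at 5748 CPM, and the lowest miR-155-5p. Muscle markers had larger log2 fold changes, of the opposite sign. In model against normal, 4 of 4 smooth muscle markers were positive (median 0.62) and 5 of 6 striated muscle markers (median 0.89, 4 of them at an unadjusted p under 0.05, where 7.2% of all miRNAs were). In XLHZ against model, 4 of 4 smooth muscle markers were negative (median -0.67) and 5 of 6 striated ones (median -0.88), and no muscle marker passed in either comparison. The parts of leukocyte and muscle content in the miR-155-5p values were not tested.

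miR-21-5p, the most abundant member, which represses Pdcd4, lay between 29956 and 45028 CPM in 11 of the 12 libraries. It measured 36775, 37327, 92544 and 33537 CPM in model libraries 1 to 4, against 38330, 38311, 31621 and 32200 CPM in normal ones. Model library 3 had the lowest TMM factor of the 12, 0.817, which raises its CPM values over those on library totals alone. It alone among model libraries exceeded every normal library, at 2.64 times the normal mean, and the other 3 lay within the normal range. The log2 fold change was 0.50 (SE 0.30, adjusted p = 0.642 in edgeR), and without model library 3 it was 0.083 (SE 0.11, adjusted p = 0.821). XLHZ libraries 1 to 4 measured 29956, 35633, 43117 and 45028 CPM, a range that spans the normal one. Against the model the log2 fold change was -0.39 (SE 0.32, adjusted p = 0.819), and without model library 3 it was 0.047. Against normal mucosa it was 0.10 (SE 0.14), with a 95% interval of 0.867- to 1.33-fold.

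The passenger arm miR-21-3p, cut from the same hairpin, showed the same library apart. It stood at 52.8, 41.9, 161.5 and 56.7 CPM in model libraries, against 48.8, 46.8, 79.9 and 33.1 CPM in normal libraries. The log2 fold change was 0.57 (SE 0.45, adjusted p = 0.703 in edgeR), and without model library 3 it was 0.0047. XLHZ libraries held 26.6, 35.8, 64.6 and 40.4 CPM. Of the 4 XLHZ libraries, 3 lay below every model library, with a log2 fold change of -0.91 (SE 0.46, unadjusted p = 0.0761, adjusted p = 0.729), the most negative among the members in that comparison. Without model library 3 it was -0.32.

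miR-146a-5p, the NF-kB-induced brake on Irak1 and Traf6, was high in 2 libraries, one from each exposed group. It measured 1373, 1254, 6278 and 1381 CPM in model libraries 1 to 4, against 1453, 1682, 1507 and 1807 CPM in normal libraries. Model library 3 stood at 3.89 times the normal mean, and the other 3 model libraries lay below every normal library. The log2 fold change was 0.66 (SE 0.50, adjusted p = 0.681 in edgeR). Without model library 3 it was -0.22 (SE 0.13, adjusted p = 0.691), so that single library sets its sign.

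In XLHZ libraries 1 to 4 miR-146a-5p measured 1676, 1409, 1946 and 3928 CPM. XLHZ library 4 was 2.44 times the normal mean, while library 1 lay within the normal range, library 2 below it and library 3 above it. Against the model the log2 fold change was -0.21 (SE 0.57, 95% interval 0.356- to 2.10-fold, adjusted p = 0.938 in edgeR). It was 0.70 without model library 3, and 0.059 on library totals alone, where the median of all miRNAs was 0.17. Against normal mucosa it was 0.45 (SE 0.30, adjusted p = 0.640), and without XLHZ library 4 it was 0.032.

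The minor arm miR-146a-3p was highest in the same 2 libraries, at 25.8 CPM in model library 3 and 19.7 CPM in XLHZ library 4, against 3.70 to 7.49 CPM in normal libraries. XLHZ library 3, at 11.4 CPM, and model library 4, at 9.64 CPM, also lay above every normal library. Its log2 fold changes were the largest positive ones among the members, at 0.94 (SE 0.49, adjusted p = 0.642 in edgeR) in model against normal and 0.81 (SE 0.42, adjusted p = 0.567 in edgeR) in XLHZ against normal. Without model library 3 the first was 0.29, and without XLHZ library 4 the second was 0.36.

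miR-146b-5p, with the same seed, shared that pattern only in part. Model library 3 was the highest of its group but lay within the normal range, and XLHZ library 4 lay below every normal library. miR-146b-5p measured 670, 761, 1154 and 553 CPM in model libraries, against 1169, 825, 781 and 1563 CPM in normal libraries. Model libraries 1, 2 and 4 lay below every normal library, and the log2 fold change was -0.47 (SE 0.29, adjusted p = 0.642 in edgeR). XLHZ libraries held 666.5, 867.5, 1335 and 763 CPM, with a log2 fold change of 0.20 (SE 0.28) against the model and -0.29 (SE 0.27) against normal mucosa. The ratio of miR-146a-5p to miR-146b-5p counts was 5.15 in XLHZ library 4 and 5.44 in model library 3. It was 1.46 to 2.52 in the other XLHZ libraries, 1.65 to 2.498 in the other model libraries and 1.16 to 2.04 in normal ones.

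**Figure D2:**
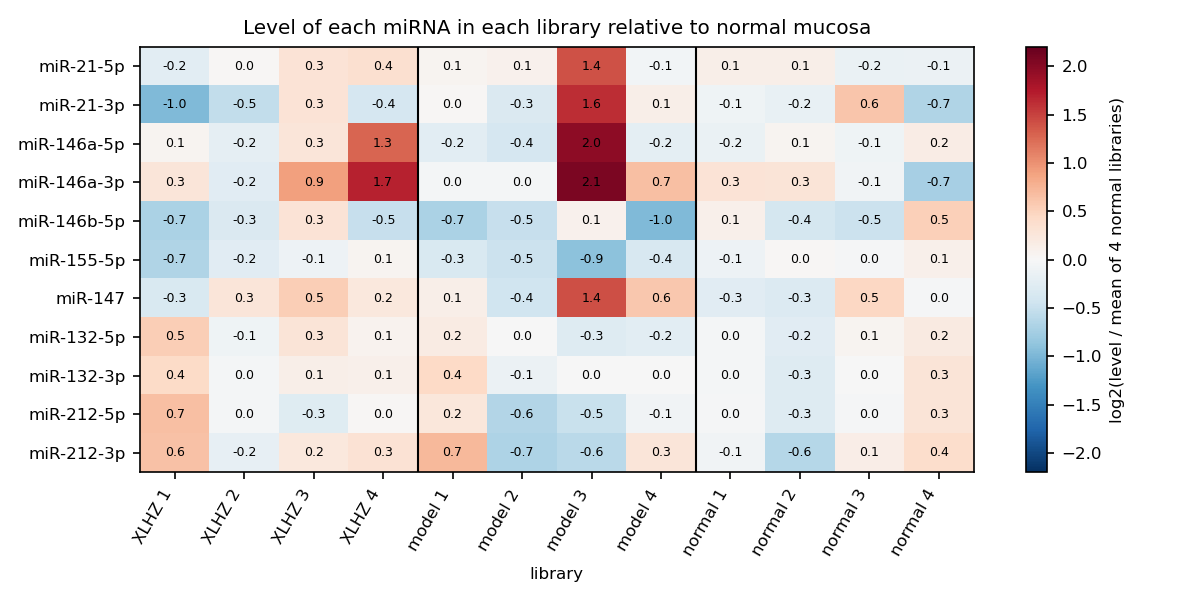
Level of 11 miRNAs (down the page) in each of 12 libraries (across), as the log2 ratio to the mean of the 4 normal libraries; red is higher and blue lower. Model library 3 is red for both arms of miR-21 and miR-146a and for miR-147, XLHZ library 4 for both arms of miR-146a, and the miR-155-5p row is blue in all 4 model libraries.

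miR-147, whose hairpin in mouse macrophages answers Toll-like receptor signals, was also highest in model library 3. It measured 75.3, 50.7, 182 and 103 CPM in model libraries, against 57.4, 55.7, 93.8 and 67.4 CPM in normal libraries. Model libraries 3 and 4 lay above every normal one and model library 2 below. The log2 fold change was 0.57 (SE 0.37, adjusted p = 0.648 in edgeR), and without model library 3 it was 0.21. XLHZ libraries measured 54.1, 82.7, 99.7 and 80.2 CPM, overlapping both other groups, with a log2 fold change of -0.39 (SE 0.38) against the model and 0.17 (SE 0.23) against normal mucosa.

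For the CREB-driven pair miR-132 and miR-212 the 3 groups overlapped. miR-132-3p measured 194, 140, 158 and 155 CPM in XLHZ, 196, 132, 143 and 144 CPM in model, and 140, 119, 143.5 and 175 CPM in normal libraries. The 95% intervals of its fold difference were 0.779 to 1.45 for model against normal, 0.773 to 1.39 for XLHZ against model and 0.859 to 1.40 for XLHZ against normal. miR-212-3p measured 13.9, 7.85, 10.4 and 11.0 CPM in XLHZ, 14.6, 5.57, 5.88 and 10.7 CPM in model, and 8.39, 5.77, 9.79 and 11.6 CPM in normal libraries. Its intervals were wider, at 0.592- to 1.80-fold for model against normal, 0.683- to 1.95-fold for XLHZ against model and 0.801- to 1.76-fold for XLHZ against normal. XLHZ library 1 and model library 1 were the highest of their groups for both miRNAs. Across the 12 libraries Pearson's r of log2 levels was 0.88 between miR-132-3p and miR-212-3p, 0.79 between the miR-132 arms and 0.85 between the miR-212 arms, as a description over libraries that share a tissue and a preparation. The model against normal log2 fold changes, 0.089 for miR-132-3p and 0.046 for miR-212-3p, were -0.026 and -0.034 on library totals alone.

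**Figure D3:**
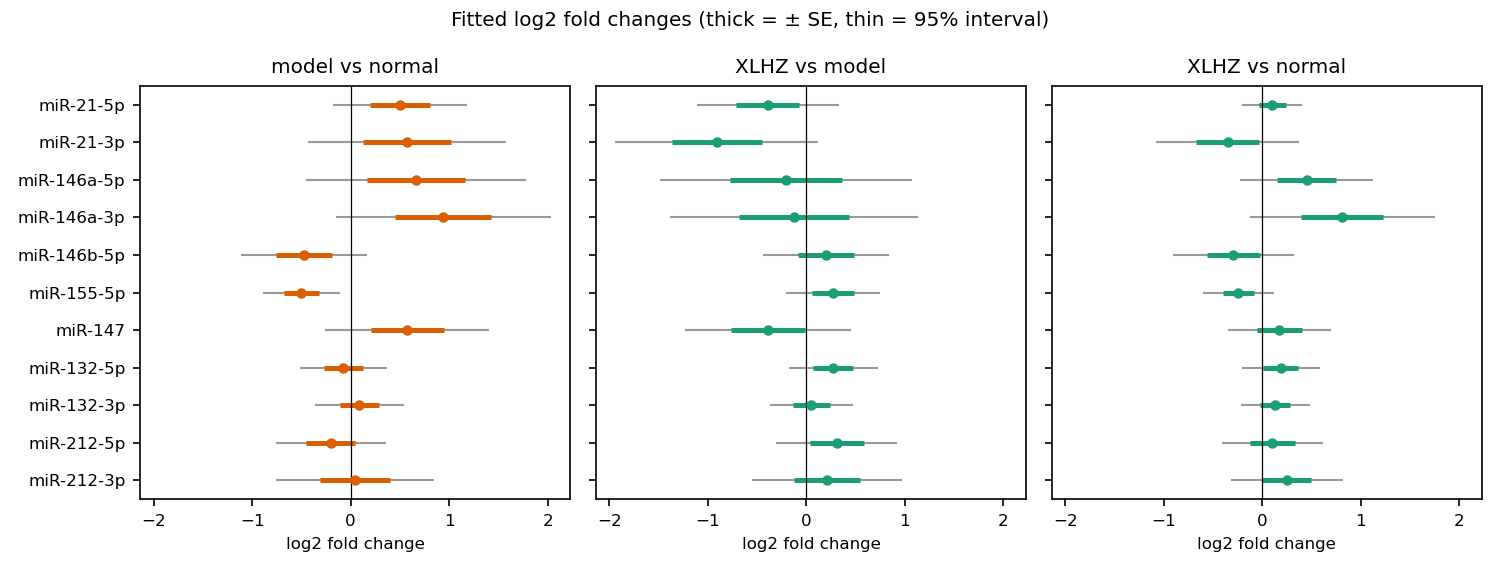
Log2 fold changes of the 11 tested miRNAs in 3 comparisons, from edgeR; dots are estimates, thick bars ± SE and thin bars 95% intervals not adjusted for multiple tests. The miR-155-5p interval in model against normal, -0.89 to -0.11, is the one that leaves out 0, and the miR-146a intervals are the widest in XLHZ against model.

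The likeness of some members to each other rested on model library 3. Without model library 3, r between miR-21-5p and miR-146a-5p was 0.54, against 0.86 with it, and r between miR-21-5p and miR-147 was 0.12, against 0.71. That between miR-132-3p and miR-212-3p was 0.92 without the library. r between miR-155-5p and miR-21-5p was 0.39 without model library 3 and -0.49 with it. These values are descriptions over 11 or 12 libraries.

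Model library 3 also differed in miRNAs outside the set. The p53-induced miR-34a-5p stood at 2182 CPM there, against 291 to 506 CPM in the other model libraries and 242 to 690 CPM in normal ones. miR-375-3p, of gastric and endocrine epithelium, stood at 5229 CPM, against 11252 to 13077 CPM in the other model libraries and 13637 to 19633 CPM in normal ones. The other epithelial markers were mixed there. miR-200a-3p, miR-200b-3p and miR-429 were the highest of the model group, at 27527, 28734.5 and 21314 CPM. miR-200c-3p was the lowest, at 1091 CPM, and miR-141-3p, at 6508 CPM, lay just above model library 2. The epithelial sum in model library 3 was 90404 CPM, against 66686 to 96249 CPM in the other model libraries. Fibroblast markers (arms of miR-199a, miR-214 and miR-140) summed to 15163 CPM, against 11031.5 to 11790 CPM in the other model libraries. Their sum was 12645.5 to 13019 CPM in normal and 10581 to 12898 CPM in XLHZ libraries. The summed level of the smooth muscle markers (miR-143 and miR-145, both arms) was 356150 CPM, below model library 2 at 403505 CPM and above the 145152 to 215562 CPM of the other model libraries and the 133247 to 219379 CPM of normal ones. Model library 2, with the highest muscle sum, had miR-21-5p and miR-146a-5p at 1.06 and 0.778 times the normal mean. All 4 smooth muscle markers and all 6 striated muscle markers had counts enough to be tested although the tissue is labelled as mucosa, and the 6 epithelial ones summed to 66686 to 101342 CPM over the 12 libraries. The part of these differences in the members' values was not tested.

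For each of 3 members, the 3 miRNAs outside the set with the most similar levels over the 12 libraries were listed. For miR-21-5p they were miR-34a-5p, miR-455-5p and miR-187-3p, with r of 0.90, 0.88 and 0.85 over 12 libraries and 0.54, 0.18 and 0.56 over the 10 left without model library 3 and XLHZ library 1. For miR-146a-5p they were miR-350, miR-16-5p and miR-3586-3p, with r of 0.85, 0.84 and 0.82, and 0.35, 0.75 and 0.67 without model library 3 and XLHZ library 4. For miR-155-5p they were miR-185-5p, miR-672-3p and miR-1839-5p, with r of 0.73, 0.73 and 0.67, and 0.82, 0.75 and 0.66 without model library 3 and XLHZ library 1. The libraries left out were, for each member, those farthest from its own median level, and leaving out extreme values can by itself change r. The candidates were 273 miRNAs with a mean above 10 CPM, and the values describe likeness only.

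**Figure D4:**
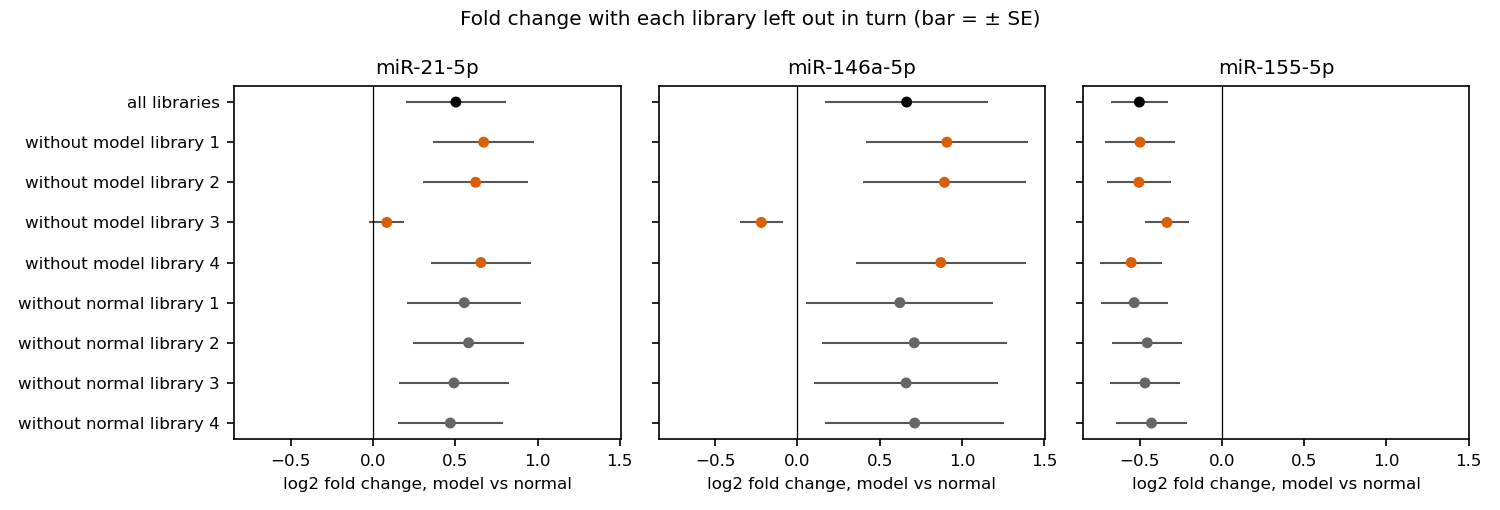
Model against normal log2 fold change (horizontal axis, ± SE) of miR-21-5p, miR-146a-5p and miR-155-5p with all 8 libraries (black) and with each model (orange) or normal (grey) library left out in turn. Leaving out model library 3 takes miR-21-5p to 0.083 and miR-146a-5p to -0.22, while miR-155-5p stays between -0.55 and -0.33.

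The ratio of the arms of a hairpin does not depend on scaling and was computed for the 5 hairpins with both arms counted. For miR-146b, whose 3p arm had 0 to 5 counts, the ratio is set largely by the 0.5 added to each count: the difference in log2 ratio between XLHZ and model was 1.26, and 1.11 with 1 added. miR-21 and miR-146a were nearly all 5p arm: in the 12 libraries there were 396 to 1126 counts of miR-21-5p for each count of miR-21-3p, and 143 to 489 of miR-146a-5p for each of miR-146a-3p. miR-132 favoured its 3p arm and miR-212 gave both arms about equally. Two-sided exact permutation tests over libraries were run for the 5 hairpins in 3 comparisons, but with 4 libraries against 4 they could hardly pass. The smallest exact p is 0.0286, which in a single test adjusts to 0.429 over the 15, and 9 of the 15 would have had to reach it. The outcome therefore says little about whether arm use differed. The lowest exact p was 0.0857 (adjusted p = 0.643) and was for miR-21 in XLHZ against model, with a log2 ratio of 9.90 ± 0.35 in XLHZ and 9.40 ± 0.29 in model libraries (SD, n = 4 each). In model library 3, where both arms of both hairpins were high, the ratios of 573 for miR-21 and 243.5 for miR-146a lay within the range of the other libraries.

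**Figure D5:**
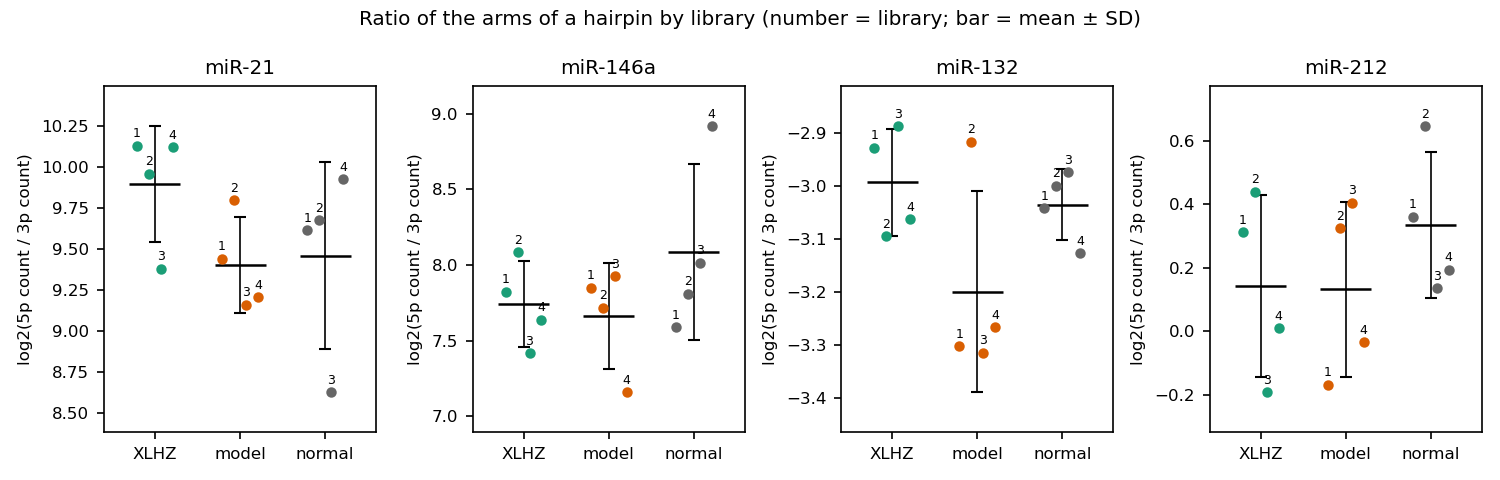
Log2 ratio of 5p to 3p counts for 4 hairpins in each library (axes do not start at 0); points carry the library number, lines are group means and bars ± SD (n = 4). Groups overlap for all 4 hairpins, and model library 2 stands apart from the other model libraries for miR-132.

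A wider list of 18 other miRNAs known from inflammation, of which 17 were tested, gave no call either, and at an unadjusted p under 0.05 there were 1, 2 and 2 of the 17 in model against normal, XLHZ against model and XLHZ against normal, beside 7.2%, 4.23% and 8.73% of all miRNAs. In model against normal mucosa 11 had positive and 6 negative log2 fold changes, with a median of 0.083. In XLHZ against model 3 were positive and 14 negative, with a median of -0.24, and in XLHZ against normal 4 were positive and 13 negative, with a median of -0.17. Over all miRNAs the medians were -0.0072, 0.0057 and -0.0040 in the same order. The list counts both arms of miR-9a, and its miR-223-3p is also among the leukocyte markers, so these signs are not independent. The lowest in p in model against normal were miR-9a-3p, miR-9a-5p and miR-187-3p, with adjusted p of 0.605, 0.620 and 0.642 in edgeR. miR-9a-5p, which is NF-kB-induced in human monocytes and also neuronal, averaged 280 ± 73.1 CPM in XLHZ, 484 ± 179 CPM in model and 316 ± 65.2 CPM in normal libraries. Its log2 fold change in XLHZ against model was -0.80 (SE 0.30, adjusted p = 0.729 in edgeR), and miR-9a-3p and miR-125b-5p were next in p, with log2 fold changes of -0.74 and -0.49. In XLHZ against normal the lowest in p were miR-181b-5p, miR-125b-5p and let-7e-5p, with log2 fold changes of -0.48, -0.27 and -0.17 and adjusted p of 0.470, 0.493 and 0.567 in edgeR.

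The most abundant of that list were miR-125b-5p, a brake on tumour necrosis factor in macrophages, miR-125a-5p and let-7i-5p. miR-125b-5p averaged 23472 ± 3199 CPM in XLHZ, 32501 ± 12144 CPM in model and 27781 ± 2276 CPM in normal libraries. miR-125a-5p averaged 11929 ± 1799, 14052 ± 2781 and 12237 ± 2961 CPM in the same order, and let-7i-5p 11334 ± 1023, 12255 ± 1302 and 12120 ± 709 CPM (SD, n = 4 each). The model libraries highest in miR-125b-5p were libraries 2 and 3, which are also those highest in smooth muscle miRNAs. XLHZ library 2 was likewise the highest of its group in both. Normal library 4 had the lowest smooth muscle sum of its group, but its miR-125b-5p, at 27986 CPM, lay inside the normal range of 24657 to 30098 CPM. The part of muscle content in the miR-125b-5p values was not tested. Of the 5 neuronal markers, which include both miR-9a arms, 4 had positive log2 fold changes in model against normal and 4 negative ones in XLHZ against model, with none passing. Their sum was 622 to 798 CPM in XLHZ, 699 to 1168 CPM in model and 685 to 761 CPM in normal libraries. The part of neuronal content in the miR-9a values was not tested.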

How the data were processed

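The authors deposited 2 tables of raw counts per mature miRNA, one of normal and model and one of model and XLHZ libraries, with CPM columns that, per the file headers and a check to 5.0e-05, scale each count to its column total. RNA with an integrity number above 7.0 was made into libraries with a QIAseq kit, per the labels' protocols. Bowtie and DESeq are named in the submitters' processing notes. Whether molecular identifiers were used, and the build and counting rule, were not given in the sources used here. Of 622 miRNAs in both tables, 621 had the same model counts in each. The exception, miR-20b-3p, was left out of the joined table used for levels over 12 libraries and for XLHZ against normal.

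Each comparison was fitted on its 8 libraries with edgeR 4.0.16 (quasi-likelihood, TMM, filterByExpr at its minimum count of 10), run under R 4.3.3, with Benjamini-Hochberg adjustment over all miRNAs at 0.05. The SE is the log2 fold change over the square root of F. Arm ratios used log2 counts with 0.5 added and exact permutation tests. Likeness used log2(CPM + 0.5). Members, lists and tests were chosen with earlier results of these data known. All 13 members were reported, and 3 similar miRNAs were named for each of miR-21-5p, miR-146a-5p and miR-155-5p. Of the wider list, the 3 lowest in p and the 3 most abundant were named. The procedure was tested on simulated data. Alternatives were DESeq2 1.42.0, other scalings and filters, 1 fit of all libraries, the replicate number as a block and libraries left out.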

Additional observations from a re-analysis of the deposited data

Results flagged for a closer look

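Among 48 groups of 4 libraries checked for a library far from its nearest neighbour (Dixon's test at 95%), 4 were found, all in the model group, and chance gives about 1 in 20. The 48 are not independent, since both arms of a hairpin and their ratio were checked in the same libraries. No excess over chance can therefore be read from the 4. The gap as a share of the group's range was 0.936 for miR-21-5p, 0.876 for miR-21-3p and 0.9747 for miR-146a-5p. In all 3 the library apart was model library 3, with 92544, 161.5 and 6278 CPM. The fourth was the ratio of the miR-132 arms, with a gap of 0.877, where model library 2 had 0.132 counts of the 5p arm per count of the 3p arm and the other model libraries 0.1001 to 0.1037.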

How the results depend on the processing

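None of the tested members passed under any alternative. Over 550 recomputed log2 fold changes of members, 518 kept their sign and 32 reversed, and the lowest adjusted p was 0.261, for miR-155-5p in model against normal with DESeq2. DESeq2 gave no p for miR-146a-5p in model against normal or XLHZ against model. The log2 fold change of miR-155-5p stayed negative in model against normal under every alternative run.

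Counts over all miRNAs moved. In model against normal, 1 passed, against 2 with upper-quartile factors, 2 on library totals, 2 with at least 50 counts in 4 libraries, 3 with no filter, 4 in 1 fit of all 12 libraries, 7 with DESeq2 (5 higher, 2 lower) and 1 to 4 with single libraries left out, 4 without model library 4. In XLHZ against model, 1 passed, against 0 without model libraries 2 and 3 and 0 to 1 with single libraries left out. In XLHZ against normal, 6 passed, against 2 in 1 fit of all 12 libraries and 4 to 7 with single libraries left out.

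Reversed log2 fold changes in XLHZ against model were, without model libraries 2 and 3, -0.12 for miR-132-3p, 0.44 for miR-146a-3p, 0.66 for miR-146a-5p, 0.083 for miR-21-5p, -0.28 for miR-212-3p and -0.014 for miR-212-5p, and on library totals 0.11 for miR-146a-3p and 0.059 for miR-146a-5p. In model against normal they were, without model libraries 2 and 3, 0.014 for miR-132-5p, -0.20 for miR-146a-5p and 0.12 for miR-212-5p, and on library totals -0.026 for miR-132-3p and -0.034 for miR-212-3p. With single libraries left out, values that changed sign spanned, in XLHZ against model, -0.047 to 0.19 for miR-132-3p, -0.56 to 0.56 for miR-146a-3p, -0.61 to 0.70 for miR-146a-5p, -0.071 to 0.41 for miR-146b-5p, -0.60 to 0.00045 for miR-147, -0.53 to 0.047 for miR-21-5p, and -0.090 to 0.19 and -0.089 to 0.12 for the arm ratios of miR-146a and miR-212. In XLHZ against normal they spanned -0.10 to 0.24 for miR-212-5p and -0.0077 to 0.94 for the miR-146b arms. In model against normal they spanned -0.11 to 0.040 for miR-132-5p, -0.22 to 0.91 for miR-146a-5p, -0.20 to 0.25 for miR-212-3p and -0.34 to 0.096 for the miR-21 arms. On library totals the median of all miRNAs in XLHZ against model was 0.17. Relative to that median miR-146a-3p stood at -0.058 and miR-146a-5p at -0.11, the sign of the main fit. In model against normal, miR-132-3p and miR-212-3p on library totals lay above the median of all miRNAs. Apart from the library left out and these medians, the cause of the reversals was not tested.

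No label says what a replicate number shares, and the data gave a mixed hint of pairing: deviations of same-numbered libraries correlated at -0.34 to 0.48 over 12 pairs, at 0.34, 0.48 and 0.21 for the pairs numbered 2, and 6 of 12 were highest with their own number, where 3 would be by chance. The numbers were not treated as pairing the libraries, since not every pair correlated above 0.1. With the replicate number as a block, 1, 1 and 5 miRNAs passed in model against normal, XLHZ against model and XLHZ against normal, and the sign turned for miR-146a-5p in XLHZ against model, at 0.070, and for miR-212-3p in model against normal, at -0.027. Depth limits the low arms, miR-155-3p and miR-146b-3p.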
